A study of Mus musculus with 6 samples.

Results

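The 37 genes described here carry glucose into the cell and pass it through glycolysis, the pentose phosphate pathway and glycogen. They were taken by symbol from the 43432 gene IDs counted by RNA-seq in neutrophils sorted from the mouse uterus, and all 37 were found. A filter on low counts left 12908 genes for testing, among them 36 of the 37; the enolase gene Eno2 did not pass it. The libraries came from PRPL mice of strain C57BL/6, a model of uterine tumours in which a Cre placed at the progesterone receptor gene (Pgrcre/+) acts in cells that express that receptor. The hyperoxia group, with 3 libraries, was kept in a chamber at 60% oxygen from postnatal day 18 to postnatal day 28. The normoxia group, also with 3 libraries, stayed in ambient air over the same 10 days. All mice carried the same genotype and were 4 weeks old at sampling, and no group of another genotype was analysed here. Neutrophils were sorted from the digested whole uterus as CD45+ CD11b+ cells with high Ly6G. The labels do not say that the libraries came from separate animals, and the spread behind each p-value may therefore be partly technical. The comparison asked how extra oxygen for the host altered the RNA of neutrophils in this uterus.

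Neutrophils rely little on their mitochondria and draw most of their ATP from glycolysis, in which glucose is phosphorylated, split and oxidised to pyruvate, and the pyruvate is reduced to lactate and exported. The oxidative branch of the pentose phosphate pathway yields NADPH, which feeds the NADPH oxidase of the oxidative burst, and glycogen is the cell's own glucose store. Many genes of glycolysis, Slc2a1, Hk2, Pfkfb3 and Ldha among them, are known targets of the hypoxia-inducible factors, which are degraded where oxygen is plentiful.

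Hypoxia-inducible factors bind a core of ACGTG or GCGTG, so the 250 bases before the start of each gene were searched for these letters on both strands. The windows came from RefSeq on build GRCm38.p6, which held 52 start sites of 36 of the 37 genes; Slc2a3 was not matched. The core was found in 40 of the 52 windows (76.9%), against 38.6% of the 32817 windows of all genes. No share by gene was computed over all genes, and the core was in at least 1 window of 30 of the 36 genes. Windows of these genes were rich in G and C: 47 of the 52 had at least 50% GC, and among all windows that rich 51.3% held the core. The share among those 47 was not computed, so 51.3% and 76.9% cover unlike sets. Windows at the same coordinates were merged over all genes and not within the set. The letters of the E-box, CACGTG, contain the same core, and 5 of the 52 windows held them (9.62%, against 6.02% of all windows). The core of the antioxidant response element, TGACNNNGC, was in 4 of the 52 (7.69%, against 10.2%), and the C/EBP core, TTGCNNAA, in 5 (9.62%, against 9.57%), also on both strands. A match of letters is a description and not a binding site.

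Of these, 6 windows are shown for genes whose values recur in the results: the hexokinase Hk2, the lactate dehydrogenase Ldha and the regulator Pfkfb3 as genes of the glycolytic trunk, the enolase Eno1 for its separation of the groups, and Taldo1 and Tkt as genes of the pentose phosphate pathway. Each runs 5′ to 3′ on the gene's own strand and ends at the base before the RefSeq start nearest to the start of the gene's principal coding transcript. Capitals mark ACGTG or GCGTG read on either strand, so that CACGT and CACGC are the same cores read from the other strand.
Hk2, chr6:82774455-82774704, minus strand: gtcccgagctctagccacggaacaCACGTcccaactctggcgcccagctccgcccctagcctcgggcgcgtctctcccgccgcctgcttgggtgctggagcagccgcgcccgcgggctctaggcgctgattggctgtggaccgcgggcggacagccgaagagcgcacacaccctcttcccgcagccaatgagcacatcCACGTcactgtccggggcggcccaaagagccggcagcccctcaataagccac
Ldha, chr7:46845554-46845803, plus strand: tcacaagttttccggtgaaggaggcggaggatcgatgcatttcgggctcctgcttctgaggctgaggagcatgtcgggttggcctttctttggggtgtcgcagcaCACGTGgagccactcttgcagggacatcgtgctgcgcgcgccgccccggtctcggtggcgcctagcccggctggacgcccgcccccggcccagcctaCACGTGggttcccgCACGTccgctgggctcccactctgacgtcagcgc
Pfkfb3, chr2:11502091-11502340, minus strand: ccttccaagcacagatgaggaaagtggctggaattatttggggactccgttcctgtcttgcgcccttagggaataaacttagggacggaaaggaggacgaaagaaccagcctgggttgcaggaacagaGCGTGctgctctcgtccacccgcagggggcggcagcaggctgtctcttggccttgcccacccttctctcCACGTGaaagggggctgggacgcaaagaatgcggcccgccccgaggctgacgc
Eno1, chr4:150236458-150236707, plus strand: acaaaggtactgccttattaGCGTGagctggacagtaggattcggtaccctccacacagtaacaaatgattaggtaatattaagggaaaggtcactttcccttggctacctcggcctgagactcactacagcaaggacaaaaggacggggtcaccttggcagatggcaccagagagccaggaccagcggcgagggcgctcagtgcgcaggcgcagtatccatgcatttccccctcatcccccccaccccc
Taldo1, chr7:141391910-141392159, plus strand: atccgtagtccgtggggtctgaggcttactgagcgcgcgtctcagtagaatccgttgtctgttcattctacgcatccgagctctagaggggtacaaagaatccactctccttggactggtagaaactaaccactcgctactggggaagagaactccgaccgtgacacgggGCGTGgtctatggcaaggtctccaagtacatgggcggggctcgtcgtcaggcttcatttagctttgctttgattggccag
Tkt, chr14:30548881-30549130, plus strand: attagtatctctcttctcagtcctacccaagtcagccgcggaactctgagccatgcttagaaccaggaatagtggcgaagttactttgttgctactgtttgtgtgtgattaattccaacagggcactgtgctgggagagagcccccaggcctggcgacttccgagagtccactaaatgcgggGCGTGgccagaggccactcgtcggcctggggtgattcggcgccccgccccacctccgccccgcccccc
The core occupied 3 places in the window of Ldha and 2 places each in those of Hk2 and Pfkfb3. It occupied 1 place each in those of Eno1, Taldo1 and Tkt. The window of G6pdx, the entry enzyme of the pentose phosphate pathway, held the hypoxia core at 1 place and the antioxidant core once.

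Libraries held 44152840, 61715617 and 44803171 counts in hyperoxia and 44870447, 42479505 and 38683293 counts in normoxia. The 37 genes took 2.59%, 1.88% and 1.93% of the counts in hyperoxia replicates 1, 2 and 3, and 2.10%, 1.95% and 1.81% in normoxia replicates 1, 2 and 3. Values below are CPM, which are counts scaled to a common library size with TMM factors, and levels of different genes are compared only as CPM per kilobase of exon. The 10 neutrophil markers summed to between 73952 and 123610 CPM in hyperoxia and between 77224 and 93632 CPM in normoxia, and 0 of the 10 had an unadjusted p under 0.05 in edgeR's quasi-likelihood test. Most of that sum was S100a8, S100a9 and Il1b. Ly6g, the marker used for sorting, measured 196, 351 and 38.9 CPM in hyperoxia and 146, 53.4 and 72.7 CPM in normoxia. Of the 10 markers, 6 had a log2 difference above 0 and 4 below. The libraries also held RNA of other cells: macrophage markers summed to 1046, 1116 and 1407 CPM in hyperoxia, against 944, 837 and 877 CPM in normoxia, and 7 of these 10 genes had an unadjusted p under 0.05, against 13% of all tested genes. Most of the macrophage sum was Cd68 and Csf1r, with log2 differences of 0.06 and -0.01, whereas the median of the 10 was 1.59. Here edgeR called 0 of the 10 and DESeq2 6, against 0% and 3.97% of all tested genes. Endothelial markers summed to between 27.1 and 63.3 CPM in hyperoxia and between 8.87 and 14.2 CPM in normoxia, and stromal markers to between 35.2 and 243 CPM in hyperoxia and between 18.0 and 56.6 CPM in normoxia. The median log2 difference was 3.33 over the 8 endothelial genes and 2.38 over the 7 stromal genes tested. Of each list edgeR called 0 and DESeq2 6, against 0% and 3.97% of all tested genes. Erythroid markers summed to 116, 162 and 811 CPM in hyperoxia and 58.0, 73.1 and 728 CPM in normoxia. Smooth muscle markers summed to 24.4, 50.3 and 32.5 CPM in hyperoxia and 18.1, 15.6 and 22.1 CPM in normoxia. T and NK cell markers and B cell markers each summed to 20.8 CPM or less in every library. In bulk RNA, fewer cells of a type and less RNA per cell cannot be told apart. Hyperoxia replicate 2 stood apart: 9 genes of neutrophil granules, chosen after their values were seen, summed to 27029 CPM there, against 5269 and 1408 CPM in hyperoxia replicates 1 and 3 and 4432, 1600 and 2119 CPM in normoxia. The immunoglobulin genes Igha, Igkc, Jchain and Ighm, chosen in the same way, summed to 1162 CPM in that library and to between 30.8 and 82.0 CPM in the other 5. Ighm was not raised there, at 34.0 CPM, against 47.5 CPM in the highest other library.

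No gene of the set passed any test between the groups that used all 6 libraries. edgeR called 0 of the 36 at an adjusted p of 0.05, in a comparison that called 0% of all genes tested. DESeq2 called 0 of the 36 where it called 3.97% of all genes, and limma-voom with sample quality weights 0 where it called 0.279%. Nor was a gene of the set called by edgeR with no filter on low counts, where 0.925% of all genes were, or without hyperoxia replicate 1, where 1.3% were. At an unadjusted p under 0.05, edgeR counted 0 of the 36, against 13% of all genes. The lowest p of the set was 0.0795 in edgeR, for the transketolase gene Tkt, with an adjusted p of 0.437. These misses do not show that the groups were alike, since the standard error of a log2 difference ran from 0.20 to 0.70 in the set, with a median of 0.32.

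The fitted differences leaned towards hyperoxia without passing a test. Of the 36 genes, 28 had a log2 difference, hyperoxia over normoxia, above 0, where 53.7% of all tested genes did. The median difference was 0.19 in the set and 0.04 over all genes. That lean came with 1 library: without hyperoxia replicate 1, 15 of 36 lay above 0. The median was then -0.07 in the set and 0.09 over all genes. Whether the libraries of the groups overlapped gave the same picture, with 1 gene of 36, Eno1, separate, against 19.9% of all tested genes. When hyperoxia replicate 1, 2 or 3 was left out, the groups did not overlap for 12, 1 and 5 genes of the set, against 37%, 32.5% and 33.4% of all genes. When normoxia replicate 1, 2 or 3 was left out, they did not overlap for 4, 1 and 2, against 27.1%, 24% and 27.2%.

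**Figure D1:**
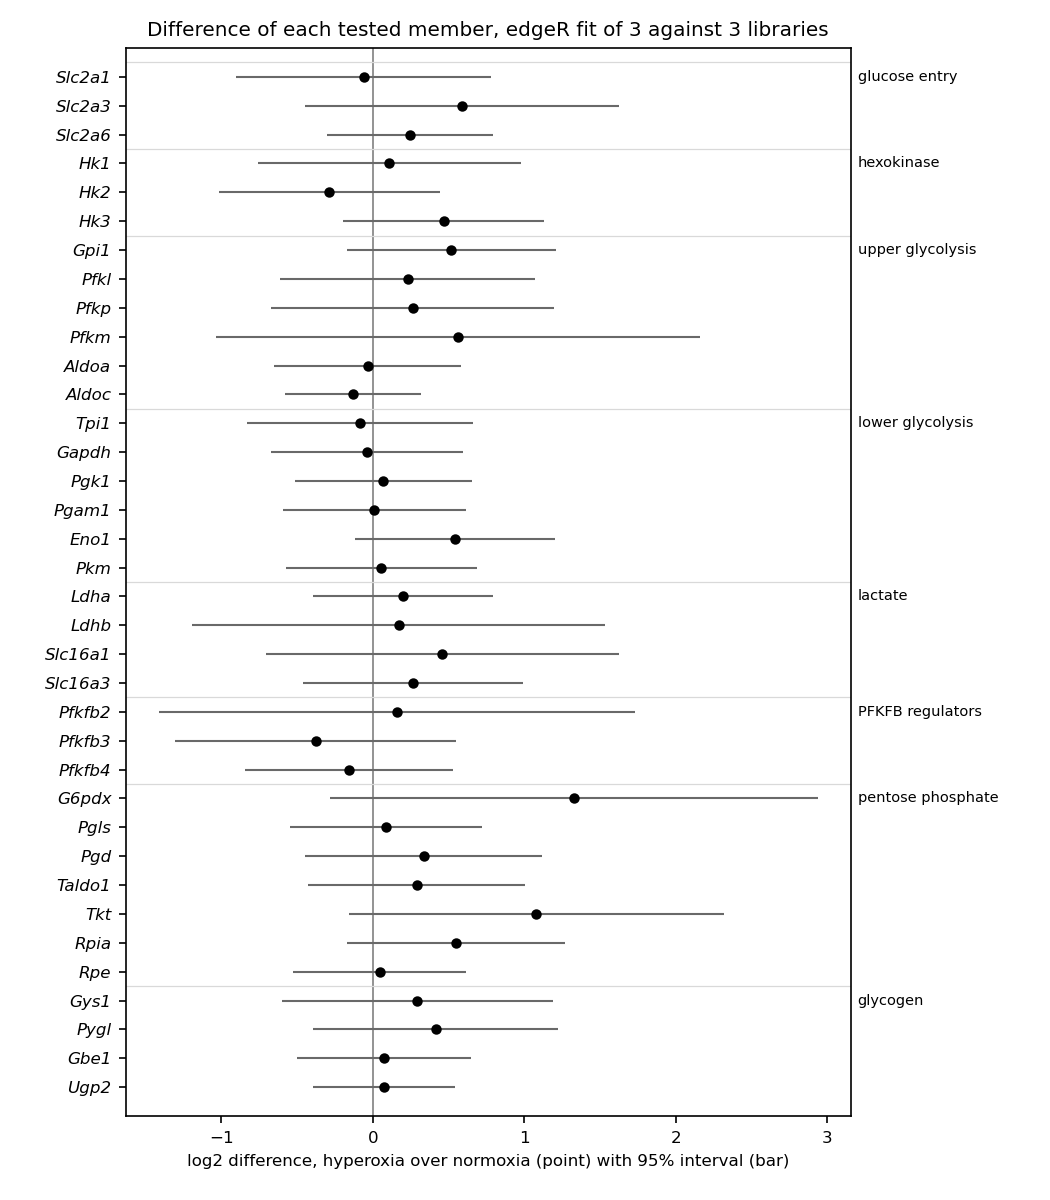
Log2 difference of the 36 tested genes, hyperoxia over normoxia (horizontal axis), in edgeR's fit of 3 against 3 libraries; points are estimates, bars 95% intervals, and genes are ordered by role down the page. Every interval includes 0, and the widest belongs to G6pdx, from -0.28 to 2.94.

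Glucose enters neutrophils through facilitative carriers of the GLUT family. Slc2a1 (GLUT1) was the most abundant of the 3 carriers per kilobase of exon, with 60.0% ± 11.1 of their summed level in hyperoxia and 68.1% ± 3.33 in normoxia (SD, n = 3 each). With the principal coding transcript in place of all exons, Slc2a6 led in hyperoxia replicate 2, at 49.6% against 38.3% for Slc2a1. Slc2a1 stood at 1176, 406 and 647 CPM in hyperoxia replicates 1 to 3 and at 875, 772 and 679 CPM in normoxia. Hyperoxia replicate 1 was the highest of the 6 libraries, the other 2 hyperoxia libraries were the lowest, and the difference of -0.06 ± 0.37 (log2, SE) averages over that split. Its 95% interval ran from -0.90 to 0.78. Without hyperoxia replicate 2 the difference of Slc2a1 was 0.26, and without hyperoxia replicate 1 it was -0.53. Slc2a6 (GLUT6), a carrier of intracellular membranes, measured 372, 345 and 273 CPM in hyperoxia and 347, 231 and 256 CPM in normoxia. Slc2a3 (GLUT3), a carrier of high affinity, measured 339, 157 and 91.7 CPM in hyperoxia, against 178, 107 and 105 CPM in normoxia, and hyperoxia alone held both its highest and its lowest library.

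Hexokinases trap glucose in the cell as glucose 6-phosphate. Hk3, the isozyme typical of myeloid cells, made up 80.1% ± 6.18 of hexokinase RNA per kilobase in hyperoxia and 72.0% ± 2.90 in normoxia (SD, n = 3 each). It measured 631, 436 and 331 CPM in hyperoxia and 421, 300 and 290 CPM in normoxia, a log2 difference of 0.47 ± 0.29 (SE; edgeR adjusted p = 0.534). Each hyperoxia library except replicate 3 was above all normoxia libraries. Hk2, an isozyme bound to mitochondria, was nearly level in normoxia, at 133, 134 and 132 CPM, and spread widely in hyperoxia, at 162, 63.3 and 102 CPM. Its share of hexokinase RNA was 12.3%, 7.80% and 14.3% in hyperoxia, below each of the 14.7%, 19.4% and 19.7% in normoxia. Among 20 such isozyme shares in 8 families, this and the share of Hk3 were the 2 whose groups did not overlap, and among single genes 19.9% of all tested did not overlap either. For Hk3 the groups nearly touched, at 75.362% in hyperoxia replicate 3 and 75.352% in normoxia replicate 1. The separation of Hk2 was present with each of 3 definitions of gene length, whereas that of Hk3 was lost with the longest or the principal coding transcript in place of all exons. No test was run on the shares. Hk1, the housekeeping isozyme, measured between 59.4 and 187 CPM in hyperoxia and between 93.7 and 129 CPM in normoxia.

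**Figure D2:**
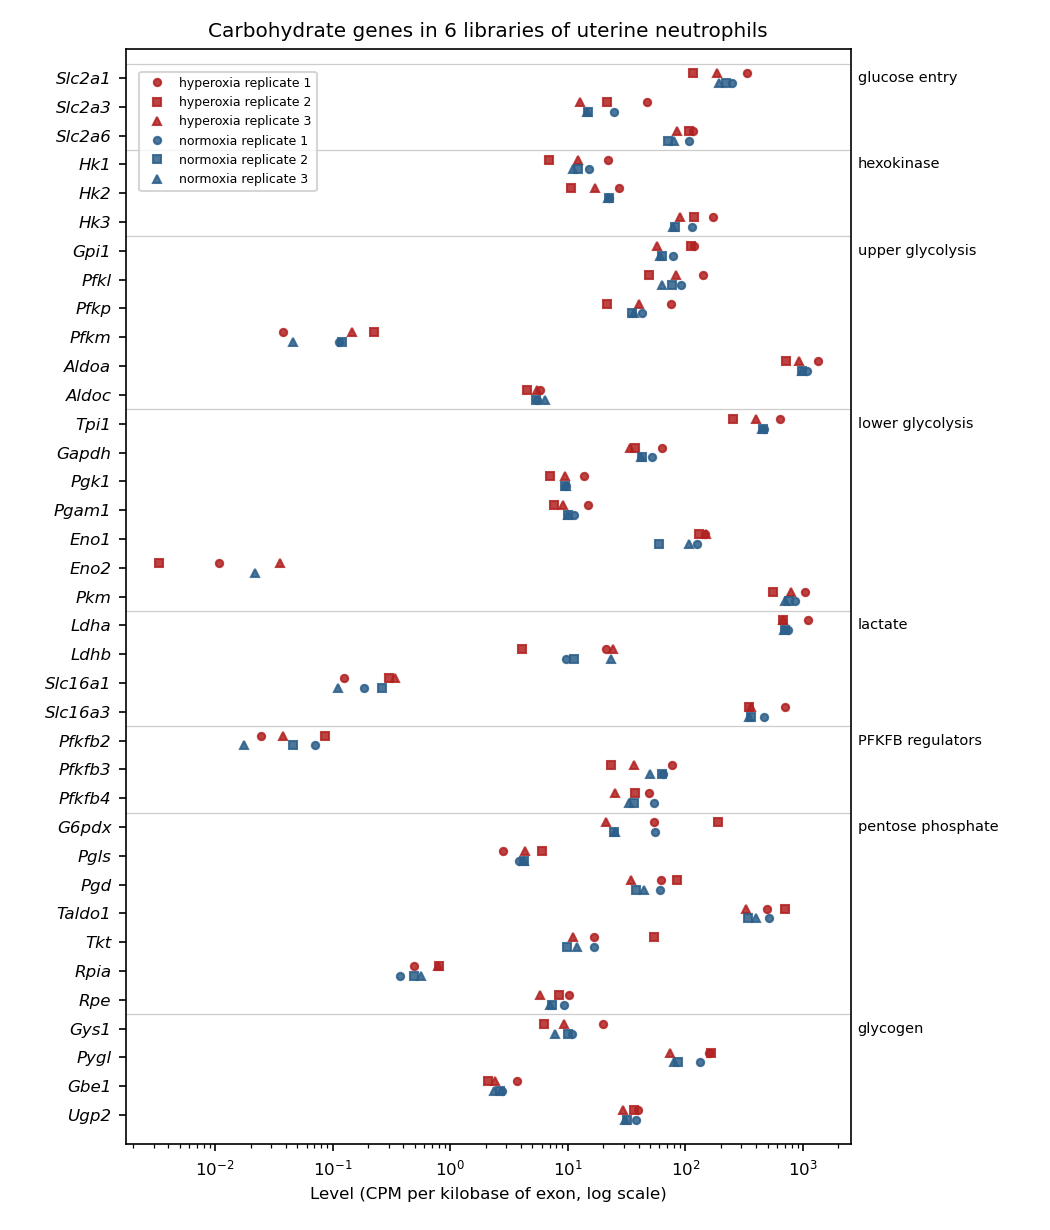
Level of each of the 37 genes in each library, as CPM per kilobase of exon on a log axis, with genes ordered by role; hyperoxia libraries are red and drawn above the blue normoxia libraries, and the 2 normoxia libraries with 0 counts of Eno2 have no point. Aldoa, Pkm and Ldha lead, Eno2, Pfkfb2, Pfkm and Slc16a1 trail, and the red points of most genes spread wider than the blue.

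Upper glycolysis was led by the aldolase gene Aldoa, whose enzyme splits fructose 1,6-bisphosphate. Aldoa had the highest level of the set in normoxia and in hyperoxia, 990 ± 313 CPM per kilobase in hyperoxia and 1014 ± 50.7 in normoxia (SD, n = 3 each), and 99.4% of aldolase RNA per kilobase in either group. Its CPM were 3876, 2085 and 2682 in hyperoxia and 3121, 2880 and 2853 in normoxia, so that the hyperoxia libraries lay on either side of all 3 normoxia libraries. The other aldolase, Aldoc, known from brain, stood at 18.9, 14.7 and 18.0 CPM in hyperoxia and 17.8, 17.6 and 21.1 CPM in normoxia. Aldoc had the smallest standard error of the set, with a difference of -0.13 ± 0.20 and an interval from -0.58 to 0.32.

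Phosphofructokinase commits sugar to glycolysis, and its liver subunit Pfkl gave 67.3% ± 2.23 of the family's RNA per kilobase in hyperoxia and 66.8% ± 2.93 in normoxia (SD, n = 3 each). Pfkl was at 940, 327 and 559 CPM in hyperoxia and at 613, 518 and 424 CPM in normoxia. The platelet subunit Pfkp, which shares 748 exonic bases with Pitrm1 on the other strand, ran alongside it, at 1016, 286 and 542 CPM in hyperoxia and 577, 469 and 491 CPM in normoxia. Hyperoxia replicate 1 was the highest and hyperoxia replicate 2 the lowest library for each of these subunits. The share of Pfkl in the family lay between 65.0% and 69.4% in hyperoxia and between 63.4% and 68.9% in normoxia, so the subunits kept their proportion while their level varied. The muscle subunit Pfkm was near the floor, between 0.126 and 0.752 CPM in all libraries, where 3 counts correspond to between 0.0470 and 0.0771 CPM. Gpi1, the isomerase that forms fructose 6-phosphate, measured 763, 726 and 371 CPM in hyperoxia and 502, 404 and 392 CPM in normoxia, a log2 difference of 0.52 ± 0.30 (SE; edgeR adjusted p = 0.505). Hyperoxia replicates 1 and 2 were above every normoxia library for Gpi1 and replicate 3 was below.

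Among the PFKFB enzymes, which set the level of fructose 2,6-bisphosphate and through it the pace of phosphofructokinase, Pfkfb3 had the most negative difference of the set, at -0.38 ± 0.41 (log2, SE; edgeR adjusted p = 0.744). Pfkfb3 measured 583, 175 and 274 CPM in hyperoxia, against 492, 475 and 375 CPM in normoxia. Hyperoxia replicates 2 and 3 lay below all normoxia libraries and replicate 1 above all of them. Without hyperoxia replicate 1 the difference was -0.97 (edgeR adjusted p = 0.131), and DESeq2 then called it at -1.01 (adjusted p = 0.0103). The share of all genes that DESeq2 called in that fit was not recorded. Without hyperoxia replicate 2 the edgeR difference of Pfkfb3 was -0.04. Pfkfb4 stood at 240, 181 and 123 CPM in hyperoxia and 264, 179 and 163 CPM in normoxia. The level of Pfkfb3 per kilobase was 1.57 and 1.44 times that of Pfkfb4 in hyperoxia replicates 1 and 3 and 0.626 times in replicate 2, against 1.20, 1.71 and 1.49 times in normoxia. Pfkfb2 lay between 0.128 and 0.626 CPM in all libraries.

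Lower glycolysis combined some of the most abundant RNAs of the set with some low ones. The triose phosphate isomerase gene Tpi1 measured 1762, 703 and 1093 CPM in hyperoxia and 1286, 1262 and 1234 CPM in normoxia. The pyruvate kinase gene Pkm measured 5199, 2783 and 3990 CPM in hyperoxia and 4246, 3771 and 3496 CPM in normoxia. For each of them the normoxia libraries stood close together while hyperoxia replicate 1 was above and hyperoxia replicate 2 below all of them. Gapdh, Pgk1 and Pgam1, which encode the steps between Tpi1 and enolase, had lower levels than Tpi1 per kilobase of exon: 44.7, 10.1 and 10.5 CPM per kilobase in hyperoxia and 45.9, 9.57 and 10.4 CPM per kilobase in normoxia, against 431 and 458 for Tpi1. For Gapdh the level depended on the length used: per kilobase of the principal coding transcript it was 130 in hyperoxia and 134 in normoxia, against 738 and 784 for Tpi1. Much of these 3 transcripts is shared with near-identical copies elsewhere in the genome. Of the 50-base stretches of the principal transcript, 82.5% also occurred in a transcript of another gene for Gapdh, 68.0% for Pgk1 and 41.5% for Pgam1. For Tpi1 the share was 7.51% and for Pkm 34.4%. How the authors' counting treated such reads is not given in the sources used here, so the low levels of these 3 genes are uncertain.

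Gapdh, which oxidises glyceraldehyde 3-phosphate, had 262, 153 and 139 CPM in hyperoxia and 216, 178 and 174 CPM in normoxia, a difference of -0.04 with an interval from -0.67 to 0.60. Pgk1, the first ATP-yielding kinase of the pathway, had 30.6, 15.8 and 21.3 CPM in hyperoxia and 21.8, 21.2 and 21.4 CPM in normoxia. Pgam1, a mutase, had 29.3, 15.2 and 18.1 CPM in hyperoxia and 22.4, 19.8 and 19.9 CPM in normoxia. All 3 were highest in hyperoxia replicate 1, as were Tpi1 and Pkm.

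Eno1, the enolase that forms phosphoenolpyruvate, was the gene whose groups did not overlap. It lies on chromosome 4, 150236721 to 150248879 in GRCm38 (ENSMUSG00000063524). Eno1 measured 785, 702 and 802 CPM in hyperoxia, against 673, 322 and 575 CPM in normoxia, with means of 763 ± 53.4 and 523 ± 181 CPM (SD, n = 3 each). The log2 difference was 0.54 ± 0.29 (SE), with an interval from -0.12 to 1.21 and an adjusted p of 0.461 in edgeR. Without normoxia replicate 2, the lowest library, it was 0.28. Without normoxia replicate 1 it was 0.83. The hyperoxia libraries were the tighter group here, which held for 1 other gene of the set, Slc2a6. The sums of the macrophage, endothelial and smooth muscle markers separated the groups as well, and the part of RNA of such cells in the values of Eno1 was not tested.

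A copy of Eno1 bears on that separation. Eno1b, a gene with nearly the same sequence that was added after values were seen, had 54.6, 0.344 and 0.400 CPM in hyperoxia and 45.5, 80.3 and 41.6 CPM in normoxia. Eno1b thus took 6.50%, 0.0490% and 0.0498% of the counts of the pair in hyperoxia and 6.33%, 19.9% and 6.75% in normoxia. Of the 50-base stretches of Eno1, 72.2% also occurred in another gene. Summed over both genes, enolase RNA was 840, 702 and 802 CPM in hyperoxia and 718, 403 and 616 CPM in normoxia, and hyperoxia replicate 2 then lay below normoxia replicate 1. The summed difference was 0.43 ± 0.26 (log2, SE; edgeR adjusted p = 0.516). Reads of one gene placed on the other were not tested. Eno2, the neuronal enolase, had 2, 1 and 8 counts in hyperoxia and 0, 0 and 4 counts in normoxia; 0 counts allow up to 0.0702 and 0.0665 CPM in normoxia replicates 1 and 2.

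**Figure D3:**
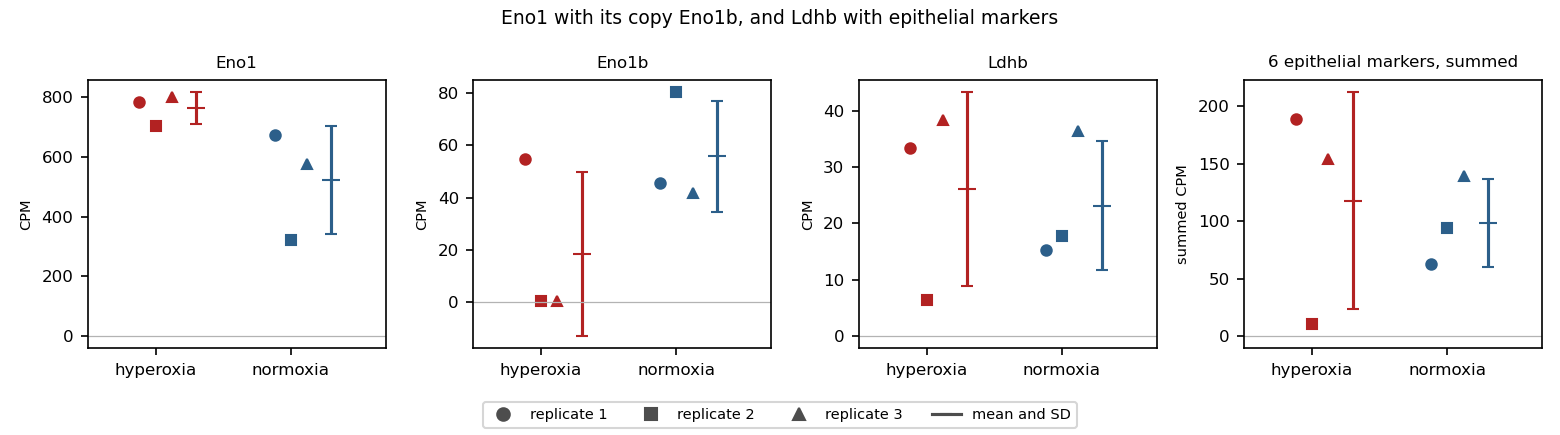
CPM of Eno1, its copy Eno1b, Ldhb and the sum of 6 epithelial markers in each library (marker shape gives the replicate), with group mean and SD as bars; hyperoxia is on the left of each panel. Eno1b is near 0 in hyperoxia replicates 2 and 3 and at 41.6 to 80.3 CPM in normoxia, and Ldhb and the epithelial markers are both lowest in hyperoxia replicate 2.

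Pyruvate leaves the pathway as lactate through Ldha, the dehydrogenase subunit that favours lactate, which gave 98.0% of the family's RNA per kilobase in each group. Ldha measured 3645, 2235 and 2260 CPM in hyperoxia and 2456, 2346 and 2287 CPM in normoxia, a difference of 0.20 ± 0.26 (log2, SE). Slc16a3 (MCT4), the proton-linked carrier that exports lactate, measured 3715, 1863 and 1910 CPM in hyperoxia and 2458, 1921 and 1849 CPM in normoxia. For these genes hyperoxia replicate 1 alone stood out, while hyperoxia replicates 2 and 3 lay close to normoxia replicates 2 and 3. Slc16a3 supplied 99.93% of the RNA of the lactate carriers per kilobase in hyperoxia and 99.95% in normoxia, since Slc16a1 (MCT1) stayed between 0.488 and 1.49 CPM.

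Ldhb, the dehydrogenase subunit typical of oxidative tissues, had 33.4, 6.39 and 38.4 CPM in hyperoxia and 15.3, 17.8 and 36.3 CPM in normoxia. The 6 epithelial markers summed to 189, 10.5 and 154 CPM in hyperoxia and 62.9, 93.7 and 139 CPM in normoxia, and 0 of the 6 were called by edgeR or DESeq2 or had an unadjusted p under 0.05. Hyperoxia replicate 2 was the lowest library and hyperoxia replicates 1 and 3 and normoxia replicate 3 the highest 3 for Ldhb and for that sum alike. Whether Ldhb was counted from epithelial RNA was not tested.

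The pentose phosphate pathway held the largest differences of the set, and they rested on 1 library. All 7 of its genes had a log2 difference above 0, with a median of 0.34, and 0 of the 7 were called. G6pdx, whose enzyme makes the first NADPH (chromosome X, 74409483 to 74429194, ENSMUSG00000031400), measured 166, 578 and 65.3 CPM in hyperoxia, against 169, 76.5 and 77.4 CPM in normoxia. The difference of 1.33 ± 0.70 (log2, SE) had an interval from -0.28 to 2.94 and an adjusted p of 0.461 in edgeR. Without hyperoxia replicate 2 it was 0.13. Its exons share 418 bases with those of Ikbkg on the other strand, and 10.7% of its 50-base stretches also occurred in another gene, foremost its copy G6pd2. In hyperoxia replicate 2 G6pdx was 3.42 times as high as in the next highest of the other 5, and 0.682% of all tested genes stood at least as far above.

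Tkt, the transketolase of the non-oxidative branch, followed the same pattern (chromosome 14, 30548359 to 30574720, ENSMUSG00000021957). It measured 122, 395 and 81.6 CPM in hyperoxia and 123, 72.7 and 87.3 CPM in normoxia, a difference of 1.08 ± 0.54 (log2, SE; edgeR adjusted p = 0.437). Without hyperoxia replicate 2 it was 0.13, and in that library Tkt was 3.21 times as high as in the next highest. Pgd, which makes the second NADPH, measured 397, 548 and 223 CPM in hyperoxia and 391, 246 and 288 CPM in normoxia. Taldo1, the transaldolase and the most abundant gene of the pathway per kilobase, measured 1071, 1526 and 711 CPM in hyperoxia and 1108, 735 and 864 CPM in normoxia. For G6pdx, Pgd and Taldo1 hyperoxia replicate 2 was the highest and hyperoxia replicate 3 the lowest of all 6 libraries, with hyperoxia replicate 1 next to normoxia replicate 1. DESeq2 called G6pdx (1.80, adjusted p = 0.0246), Tkt (1.47, adjusted p = 0.0434) and Gpi1 (0.81, adjusted p = 0.0173) when hyperoxia replicate 3 was left out, and in none of its fits that left out another library. The share of all genes that DESeq2 called in these fits was not recorded, so these calls cannot be set against it.

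The sum of the neutrophil granule genes ranked the libraries as hyperoxia replicate 2, hyperoxia replicate 1, normoxia replicate 1, normoxia replicate 3, normoxia replicate 2 and hyperoxia replicate 3. These genes were chosen after their values were seen, so the first place of hyperoxia replicate 2 may follow from that choice. G6pdx ranked the libraries in the same way except that normoxia replicate 1, at 169 CPM, stood just above hyperoxia replicate 1, at 166 CPM. Of the neutrophil markers, S100a8, S100a9, Ly6g and Retnlg gave the order of the granule sum, and the other markers did not. Retnlg is in both lists. In hyperoxia replicate 2 the granule genes Ngp, Ltf and Chil3 were 10.8, 6.84 and 23.4 times as high as in the next highest library. The part of the granule and immunoglobulin RNA of that library in the values of G6pdx and Tkt was not tested.

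**Figure D4:**
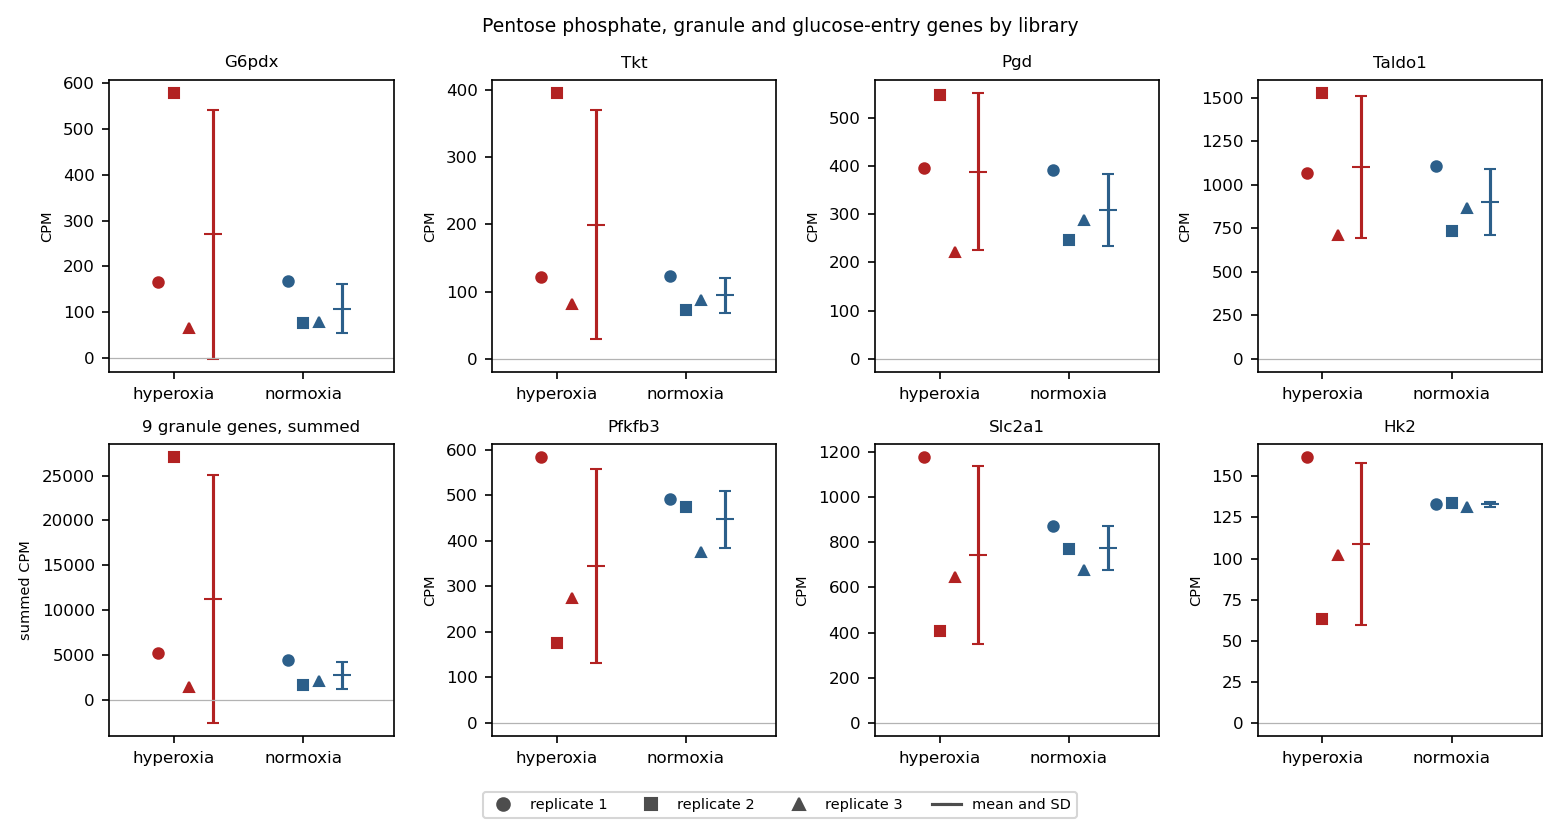
CPM of G6pdx, Tkt, Pgd and Taldo1, the summed CPM of 9 granule genes, and CPM of Pfkfb3, Slc2a1 and Hk2 in each library, with group mean and SD as bars (an SD larger than the mean reaches below 0); hyperoxia is on the left of each panel and marker shape gives the replicate. Hyperoxia replicate 2 (square) is the highest library in the panels of the pentose phosphate and granule genes and the lowest in those of Pfkfb3, Slc2a1 and Hk2.

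The remaining genes of the pathway did not follow that order as closely. Rpia, an isomerase of ribose 5-phosphate, measured 2.66, 4.29 and 4.21 CPM in hyperoxia and 1.99, 2.62 and 3.03 CPM in normoxia, a difference of 0.55 ± 0.31 (log2, SE; edgeR adjusted p = 0.499). Normoxia replicate 3 lay above hyperoxia replicate 1, and without it the groups of Rpia did not overlap. The lactonase gene Pgls shares 776 exonic bases with Fam129c on the same strand. Pgls measured 10.5, 22.5 and 16.4 CPM in hyperoxia and 14.5, 16.0 and 16.1 CPM in normoxia, with hyperoxia replicates at both ends. The epimerase gene Rpe, which shares 558 exonic bases with Kansl1l on the other strand, measured 31.8, 26.4 and 18.1 CPM in hyperoxia and 28.9, 23.0 and 22.0 CPM in normoxia.

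Ratios within a library set the branches against each other. The level of G6pdx per kilobase was 0.382, 3.83 and 0.253 times that of Pfkl in hyperoxia and 0.597, 0.320 and 0.395 times in normoxia. Hyperoxia replicate 2 was thus the single library in which RNA of the pentose phosphate entry enzyme exceeded that of the glycolytic committing enzyme. Taldo1 was 29.8, 13.1 and 29.5 times as high as Tkt in hyperoxia and 30.5, 34.3 and 33.5 times in normoxia, again with hyperoxia replicate 2 apart. The size of these ratios depended on the gene length used. With the principal coding transcript in place of all exons, G6pdx over Pfkl in hyperoxia replicate 2 was 2.49, against at most 0.388 in the other 5 libraries, and Taldo1 over Tkt was 10.1, against at least 22.8.

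Of the glycogen genes, Pygl and Gys1 were furthest apart in hyperoxia replicate 2. Pygl, the liver-type phosphorylase that releases glucose 1-phosphate from glycogen, measured 1104, 1141 and 506 CPM in hyperoxia and 921, 592 and 552 CPM in normoxia, a difference of 0.41 ± 0.35 (log2, SE; edgeR adjusted p = 0.665). Gys1, the synthase, measured 94.6, 30.1 and 44.3 CPM in hyperoxia and 52.2, 48.0 and 37.6 CPM in normoxia. Hyperoxia replicate 2 had the highest Pygl and the lowest Gys1 of all libraries, so that Pygl was 26.3 times as high as Gys1 there per kilobase, against 8.11 and 7.94 times in hyperoxia replicates 1 and 3 and 12.2, 8.56 and 10.2 times in normoxia. With the principal coding transcript these ratios were 49.3 in hyperoxia replicate 2, 15.2 and 14.9 in hyperoxia replicates 1 and 3, and 23.0, 16.0 and 19.1 in normoxia. The branching enzyme gene Gbe1 measured 19.8, 11.1 and 12.9 CPM in hyperoxia and 14.9, 14.1 and 12.6 CPM in normoxia. Ugp2, which makes the glucose donor UDP-glucose, measured 121, 113 and 90.9 CPM in hyperoxia and 117, 98.1 and 94.0 CPM in normoxia, with one of the smallest errors of the set, 0.07 ± 0.21 (log2, SE).

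The libraries of the hyperoxia group were spread more widely than those of the normoxia group. The coefficient of variation between libraries had a median of 37.9% in hyperoxia and 16.2% in normoxia over the 36 genes, and 34 of 36 varied more in hyperoxia. Over all tested genes the medians were 32.6% and 17.2%, and 78.5% of genes varied more in hyperoxia. Hyperoxia replicate 1 was the highest of the 6 libraries for 22 of the 36 genes (61.1%), against 15.4% of all tested genes. These 22 included all 3 glucose carriers, all 3 hexokinases and Aldoa, Tpi1, Pkm, Ldha and Slc16a3. Hyperoxia replicate 2 was the lowest library for 16 of the 36 (44.4%, against 26.0% of all genes), among them Slc2a1, Hk1, Hk2, Pfkl and Pfkp, and the highest for 9 (25%, against 26.1%), of which 6 were G6pdx, Pgls, Pgd, Taldo1, Tkt and Rpia. Hyperoxia replicate 3 was the lowest for 10 and the highest for 3, Eno1, Ldhb and Slc16a1.

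**Figure D5:**
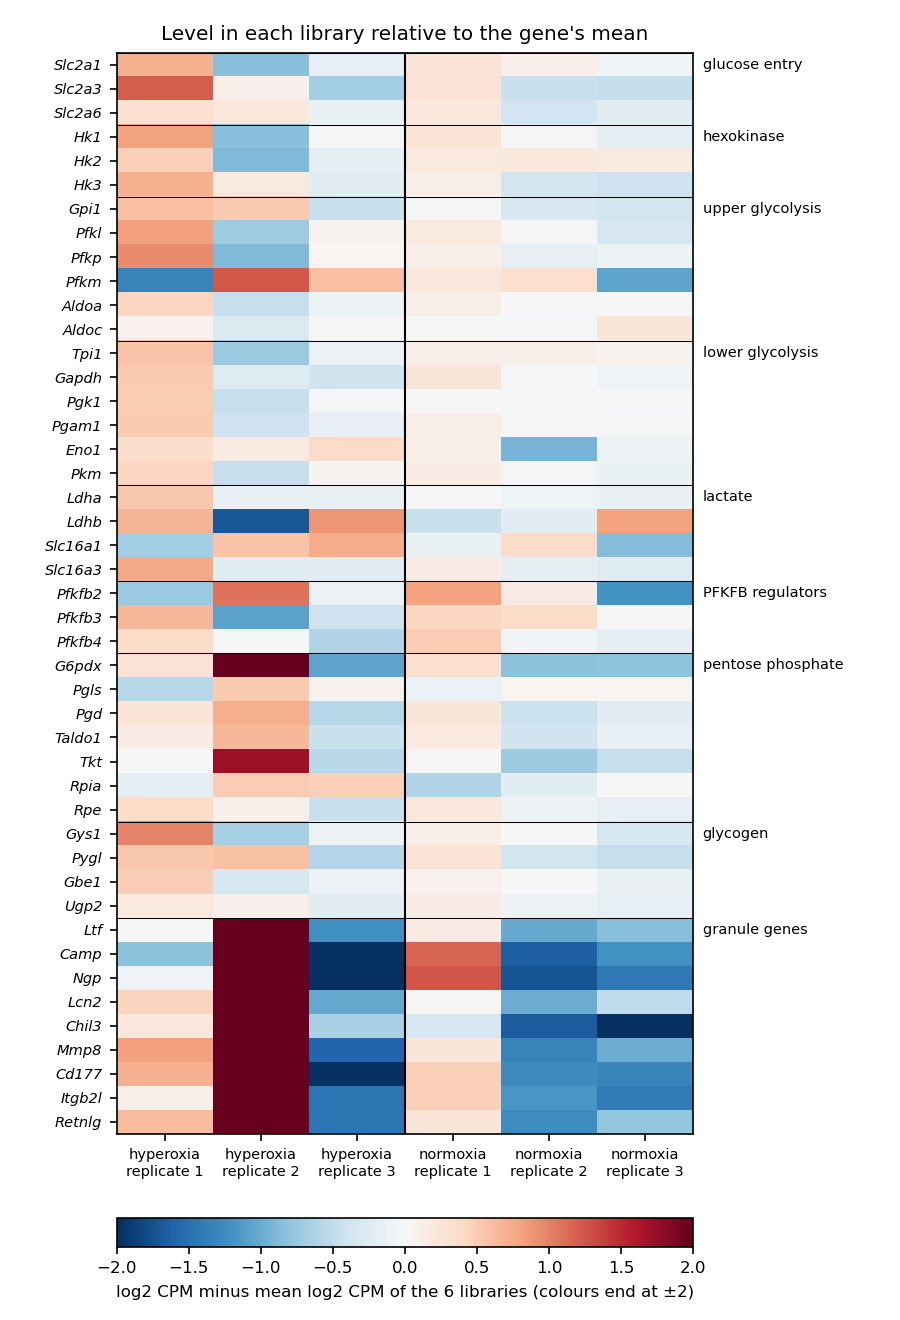
Log2 CPM of each gene in each library minus the mean of its 6 libraries (colour, ending at ±2), with hyperoxia libraries in the left columns and genes ordered by role; the bottom 9 rows are granule genes chosen after their values were seen. Hyperoxia replicate 1 is red through most of glycolysis, and hyperoxia replicate 2 is blue for much of it and red for the pentose phosphate and granule genes. The normoxia columns are paler than the hyperoxia columns for most genes of the set.

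Other genes of carbohydrate metabolism were read from 8 lists with 114 genes, 113 of them in the tables and 75 tested. Of these 75, 0 were called by edgeR or DESeq2, 49 had a difference above 0, and the median was 0.16. At an unadjusted p under 0.05 edgeR counted 8 higher, against 9.1% of all genes, and 0 lower, against 3.91%. The groups did not overlap for 11 of the 75, 10 higher and 1 lower, against 9.57% and 10.3% of all genes.

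Gmppa, which encodes a regulator of GDP-mannose synthesis, had the lowest p of these genes. It measured 13.3, 20.4 and 12.4 CPM in hyperoxia and 8.10, 9.29 and 8.61 CPM in normoxia, a difference of 0.83 ± 0.24 (log2, SE; edgeR adjusted p = 0.224, DESeq2 adjusted p = 0.0888). Its partner in that synthesis, Gmppb, had a difference of 0.58 ± 0.26, and the mannose isomerase gene Mpi one of 0.47 ± 0.27, and for all 3 genes every hyperoxia library was above every normoxia library. Pck2, the mitochondrial enzyme that makes phosphoenolpyruvate from oxaloacetate, measured 3.36, 2.91 and 4.10 CPM in hyperoxia and 1.66, 1.84 and 2.29 CPM in normoxia (0.84 ± 0.29, adjusted p = 0.291). In the same list the differences were 0.47 ± 0.36 for G6pc3, a glucose 6-phosphatase, and 0.97 ± 0.82 for the pyruvate carboxylase gene Pcx.

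Of the isozymes and shunts outside the set, Adpgk, which phosphorylates glucose with ADP, had the largest difference, with an interval from 0.07 to 4.74 (log2; edgeR adjusted p = 0.374). It measured 42.5, 274 and 10.7 CPM in hyperoxia and 37.2, 12.2 and 12.4 CPM in normoxia. Adpgk thus had the profile of G6pdx, with hyperoxia replicate 2 at 6.44 times the next highest library, a ratio that 0.155% of tested genes reached. The phosphatase gene Minpp1 (0.86 ± 0.36) and the muscle enolase gene Eno3 (1.09 ± 0.49) were the other genes with the lowest p in that list. Gyg, the glycogenin that primes glycogen, measured 129, 213 and 43.9 CPM in hyperoxia and 98.2, 53.6 and 55.7 CPM in normoxia, again highest in hyperoxia replicate 2 and lowest in hyperoxia replicate 3. The low-level glycogen genes Pygb and Pgm2l1 had differences of 0.73 ± 0.32 and 1.34 ± 0.66.

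Mpc1, a subunit of the mitochondrial pyruvate carrier, measured 11.2, 29.9 and 12.1 CPM in hyperoxia and 11.9, 9.22 and 10.1 CPM in normoxia (0.77 ± 0.38, adjusted p = 0.427). Hyperoxia replicate 2 was 2.46 times as high as the next library. Pdk3, a kinase that inhibits pyruvate dehydrogenase, and Pdp1, a phosphatase that activates it, had differences of 0.65 ± 0.35 and 1.25 ± 0.74. The minor glucose carriers Slc2a8, Slc2a9 and Slc5a1 had differences of 0.98 ± 0.40, 0.89 ± 0.41 and 0.87 ± 0.99, each at 4.10 CPM or less in every library. Of other pentose phosphate genes, Dera, an aldolase of deoxyribose 5-phosphate, had a difference of 0.71 ± 0.31, Prps1l3 one of -0.60 ± 0.38 and Prps2 one of 0.77 ± 0.54. Of the lactate carriers and their partners, Slc16a7 (MCT2) had 1.32 ± 0.52 at 1.34 CPM or less, Emb, a chaperone of these carriers, 0.52 ± 0.38, and Slc5a8 -0.48 ± 1.12.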

How the data were processed

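For each of the 6 libraries the authors deposited raw counts by gene, as whole numbers without normalization. The labels' protocols name a micro-scale RNA column kit and Ovation/NexteraXT library preparation. Per the submitters' processing notes, STAR 2.4.2a, DESeq2 1.16.1 and build GRCm38 were used; the counting program, strand setting and annotation release are not given in the sources used here. Reads from overlapping genes of either strand may therefore be mixed. Of 43432 IDs, 42548 matched GENCODE M21 and took names, exons and coordinates from it.

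Libraries were grouped by the housing condition that the labels give. The full genotype, shared by both groups, is not reported here. A library detected 17437 to 18984 genes, and no pair of libraries agreed within sampling noise (chi-square per degree of freedom of 32.2 to 851). In R 4.3.3, counts were filtered with edgeR's filterByExpr (12908 of 23147 genes with a count), scaled by TMM and compared with edgeR 4.0.16's robust quasi-likelihood test, two-sided, with adjustment over all tested genes after Benjamini and Hochberg. The biological coefficient of variation was 36.3%. Log2 differences are hyperoxia over normoxia, with standard errors from the F statistic. Levels per kilobase divide CPM by the union of exons. Sequence sharing was counted over 50-base stretches of GENCODE transcripts. Alternatives used DESeq2 1.42.0, limma 3.58.1, other scalings, filters, thresholds and lengths, and left out each library; the fits were tested on simulated data. Floors of 3 counts cover counting error only.

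The genes and lists were chosen with earlier results of these data known. Values in every library are given for the main isozyme of each step, the 6 lowest p in each direction and genes whose groups do not overlap; other pathway genes are the 3 with the lowest p in each list. The granule and immunoglobulin genes, Eno1b, the DESeq2 fits without a library and the principal-transcript lengths were added after values were seen.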

Additional observations from a re-analysis of the deposited data

How the results depend on the processing

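No paired analysis was possible because the replicate numbers only follow accession order and link no samples. Over all genes edgeR called 0; DESeq2 called 513, limma-voom with sample quality weights 36, edgeR without a filter 214 and at an adjusted p of 0.1 30, and 1680 had an unadjusted p under 0.05. In edgeR, leaving out each library gave 0 to 176 called genes, with 176 without hyperoxia replicate 1. Of the 36 genes, 0 were called in every edgeR and limma-voom setting, with a lowest adjusted p of 0.131. DESeq2 without a library called 0 to 3 of them: 1, Pfkfb3, without hyperoxia replicate 1 and 3, Gpi1, G6pdx and Tkt, without hyperoxia replicate 3. How many of all genes DESeq2 called without a library was not recorded, so these counts have no background beside them. The median difference of the set ran from -0.07 (without hyperoxia replicate 1) to 0.38 (without normoxia replicate 1), and from 0.11 with limma-voom to 0.23 with upper quartile scaling.

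The number of genes whose groups do not overlap was 1 under every scaling and filter and 1 to 12 when a library was left out, with 2 libraries then forming a group. The 12 without hyperoxia replicate 1 were Eno1, Pfkm, Pgls, Rpia and Slc16a1, higher, and Aldoa, Gapdh, Hk2, Pfkfb3, Pgam1, Slc2a1 and Tpi1, lower.

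Of 505 values of single genes under an alternative, 44 changed sign, over 22 genes, and 0 passed the threshold; the DESeq2 fits without a library, given above, are counted apart. With limma-voom Pgam1 was -0.051, Ldhb -0.11 and Hk1 -0.025; with quality weights Aldoa was 0.0037 and Pgls -0.064; with upper quartile scaling Aldoa was 0.012 and Gapdh 0.0075; with library totals Pgam1 was -0.029. When a library was left out, the differences that crossed 0 ran over these ranges: Aldoa -0.28 to 0.17, Aldoc -0.18 to 0.023, Gapdh -0.34 to 0.14, Gbe1 -0.18 to 0.26, Gys1 -0.28 to 0.62, Hk1 -0.38 to 0.45, Hk2 -0.66 to 0.0089, Ldha -0.040 to 0.34, Ldhb -0.22 to 0.72, Pfkfb2 -0.51 to 0.71, Pfkfb4 -0.37 to 0.16, Pfkl -0.20 to 0.55, Pfkp -0.28 to 0.63, Pgam1 -0.28 to 0.22, Pgk1 -0.18 to 0.29, Pgls -0.19 to 0.36, Pkm -0.15 to 0.28, Rpe -0.11 to 0.25, Slc16a3 -0.11 to 0.48, Slc2a1 -0.53 to 0.26, Slc2a3 -0.029 to 0.97, Tpi1 -0.46 to 0.20. The causes were not tested.

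Gene length moved the isozyme shares: in normoxia Hk3 had 67.6% with the longest and 66.4% with the principal coding transcript, Pfkl 70.0% and 52.7%, and Slc2a1 59.6% with the principal transcript. It also moved the level of Gapdh and the ratios between genes, as given with them; the library order of a ratio cannot change with length. Depth limits Eno2, Pfkm, Pfkfb2 and Slc16a1, which lay near the floor.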
